A study of Mus musculus with 8 samples.

Results

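The 10 genes described here encode the enzymes and regulators that divide L-arginine between nitric oxide and ornithine and that turn ornithine into polyamines: Arg1, Arg2, Nos2, Ass1, Asl, Odc1, Azin1, Srm, Sms and Sat1. They were taken as every probe on the array whose platform annotation carries one of these symbols, which gave 13 of 25697 probes. Of these probes 11, covering 8 genes, were bright enough to be tested among 11451 probes and 7809 genes. Transcript levels were measured on 8 Illumina mouse arrays, with 1 culture well each of bone marrow-derived macrophages from C57BL/6 mice, for which the labels name no allele. The cells were grown with medium conditioned by L929 fibroblasts, which secrete the growth factor that macrophages need, and then held without it for 12 hours before peptide was added. Of the wells, 4 received rat islet amyloid polypeptide (IAPP, a hormone secreted with insulin, whose rat form does not readily aggregate) and 4 received human IAPP, which forms amyloid, at 15 µM for 12 hours. The treatment protocol gives that dose in millimolar where the titles and the design text give micromolar. No untreated wells are among the samples, all wells carry a peptide, and the number of mice behind the wells is not given in the sources used here, so p-values rest on well-to-well spread alone, and that spread may be technical.

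Macrophages take up L-arginine and use it in competing ways. Inducible nitric oxide synthase (Nos2) makes nitric oxide and citrulline, and argininosuccinate synthase (Ass1) and lyase (Asl) rebuild arginine from that citrulline. The arginases, cytosolic Arg1 and mitochondrial Arg2, instead release urea and ornithine. Ornithine decarboxylase (Odc1) commits ornithine to putrescine, spermidine synthase (Srm) and spermine synthase (Sms) add aminopropyl groups, and spermidine/spermine acetyltransferase (Sat1) marks polyamines for export or breakdown. Antizyme delivers ornithine decarboxylase to the proteasome, and antizyme inhibitor (Azin1) binds antizyme and so spares the enzyme. In mouse macrophages Nos2 is a classical marker of activation by interferon-gamma and bacterial products, and Arg1 of activation by interleukin-4.

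The label of macrophage was compared with marker genes. All 10 probes of 6 macrophage marker genes were detected on each of the 8 arrays, and their summed intensity lay between 199300 and 213900 units with rat IAPP and between 205700 and 214300 with human IAPP. That sum is carried by a few very bright probes, 1 of them above 60000 raw units on all 8 arrays, and so shows presence and not changes of single markers. Of the 6 genes 1 was called higher with human IAPP, 3 lower and 2 neither, with log2 differences from -1.63 to 0.62. Of the markers of other cell types, no probe for T cells, B cells, dendritic cells or erythroid cells was detected on any array, and at most 1 of 8 fibroblast probes and 1 of 6 mast cell or basophil probes were. Of 8 neutrophil probes 1 or 2 were detected per array, and their sum lay between 2325 and 2690 units with rat IAPP and between 2085 and 3032 with human IAPP. Of 2 tested neutrophil genes, both named after their values were seen, 1 was called higher, Elane (log2 difference 0.44, adjusted p = 0.047, groups overlapping). Elane was close to background, detected on 1 of 4 rat arrays and 3 of 4 human arrays. The other, S100a8, was detected on all 8 arrays and was not called (-0.05, adjusted p = 0.75). The part of other cell types in the results below was not tested. Rat array 4 stood apart, with a mean correlation of 0.9865 with the other rat arrays against 0.9916 to 0.9929 for those. It had the lowest mean raw signal of the rat arrays, 1180 units against 1523 to 1967, and the human arrays ranged from 1144 to 1368.

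With human IAPP the polyamine-forming genes Odc1 and Srm were 3.64-fold and 2.37-fold higher, Azin1 was 1.75-fold higher, and the citrulline-recycling genes Asl and Ass1 were 1.62-fold and 1.22-fold higher. Arg1, detected in only 1 of the 4 human wells, was 3.48-fold lower as fitted and 2.78-fold lower with the human wells raised to the dimmest signal detected on their arrays. Arg2 was 1.29-fold lower. Sat1 differed by less than the spread between wells, and Nos2 and Sms were undetected on all 8 arrays. Of the 8 tested members 5 were thus called higher, 2 were called lower and 1 was not called, where called means an adjusted p below the threshold of 0.05 (limma, Benjamini-Hochberg over the 7809 genes). Among all genes tested 56.4% were called, 23.8% higher and 32.5% lower. The median log2 difference of the 8 members was 0.49, that of all genes -0.055, and the median absolute difference was 0.75 for the members and 0.35 for all genes. The groups did not overlap for 6 of the 8 members, where 51.3% of all genes had groups that did not overlap. At 2-fold or more, 2 members were called higher and 1 lower, where 429 of all genes (5.49%) and 386 (4.94%) were.

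**Figure D1:**
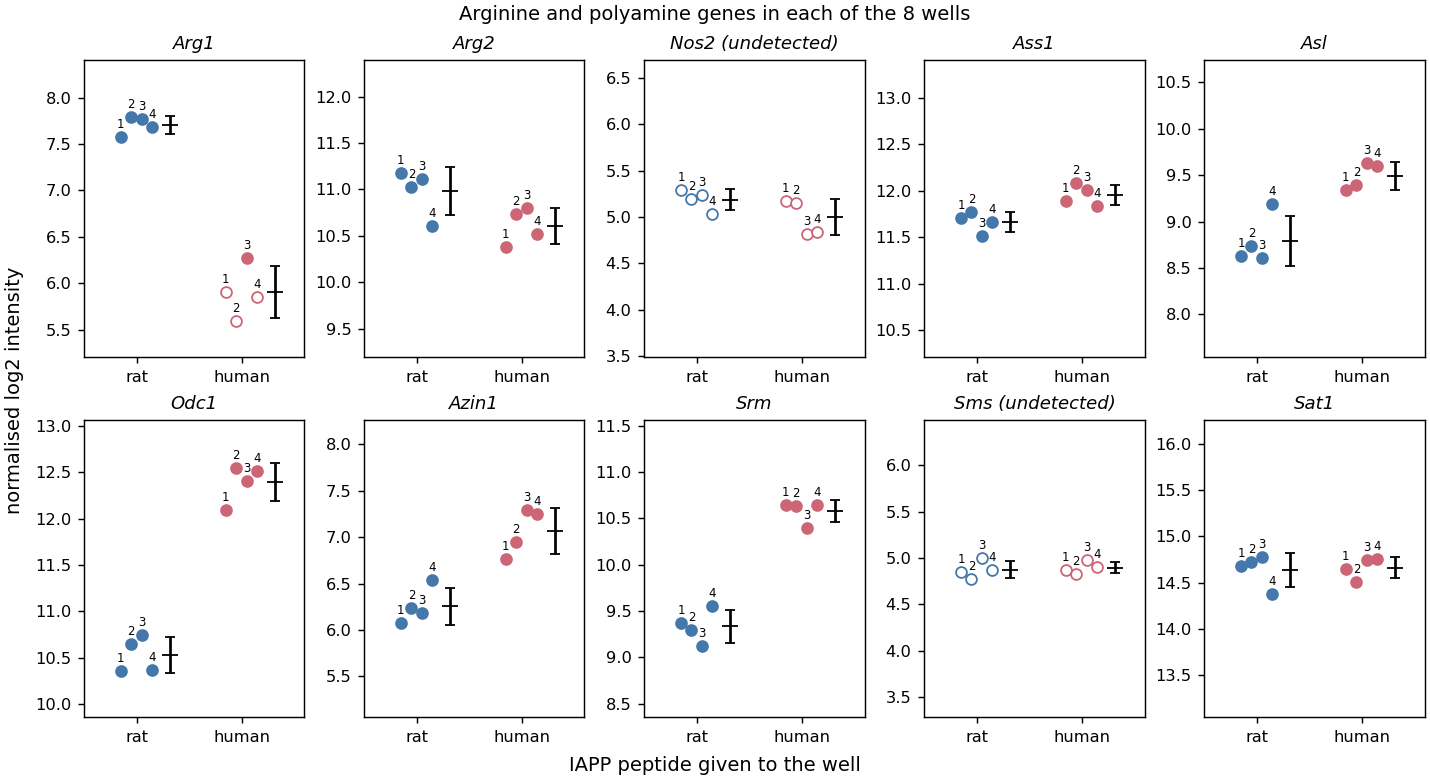
Normalised log2 intensity (vertical axis, each panel spanning the same range of log2 units but placed at its own level) of the 10 genes in the 4 rat IAPP wells (blue) and 4 human IAPP wells (red), each by its brightest tested probe or, for Nos2 and Sms, by their only probe, which was not tested. Numbers are replicates, open points are wells where the probe was undetected, and black bars give the mean and SD of each group. Odc1 and Srm lie apart in opposite sense to Arg1, whose human IAPP wells are mostly undetected, and the groups overlap for Arg2, Sat1, Nos2 and Sms.

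Odc1 encodes the first and rate-limiting enzyme of polyamine synthesis. Its normalised log2 intensity was 10.36, 10.65, 10.74 and 10.36 in rat replicates 1 to 4. With human IAPP it was 12.10, 12.55, 12.41 and 12.52. Every human well lay above every rat well, and the gap between the nearest wells, 1.35 log2 units, was far wider than the SD of 0.20 and 0.21 within the groups. Human minus rat IAPP came to 1.86 log2 units (SE 0.13, n = 4 per group, adjusted p = 2.7e-06), rank 127 among the rises of 7809 genes. It stayed between 1.52 and 2.08 under every processing alternative and passed the test in each of them.

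The stretches of genome just upstream of the annotated start sites are shown for Odc1, which rose most, for Ass1, which rose least, and for Sat1, which did not pass, since the factor Myc, described with the transcription factors below, is known to act on Odc1 through the E-box CACGTG. RefSeq windows (GRCm38.p6) matched 4 of the 10 members, the fourth being Sms, which was undetected. Capitals mark the E-box CACGTG, which reads the same on both strands, and the GC box GGGCGG, on either strand. The 250 bases before the start, 5′ to 3′ on the strand of the gene, lie at chr12:17544623-17544872 (plus strand) for Odc1, chr2:31470020-31470269 (plus strand) for Ass1 and chrX:155216450-155216699 (minus strand) for Sat1.
Odc1: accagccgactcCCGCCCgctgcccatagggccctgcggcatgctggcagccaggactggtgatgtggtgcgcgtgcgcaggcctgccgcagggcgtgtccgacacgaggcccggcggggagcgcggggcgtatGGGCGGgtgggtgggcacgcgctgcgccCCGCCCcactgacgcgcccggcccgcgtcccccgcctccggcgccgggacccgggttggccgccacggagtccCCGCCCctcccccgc
Ass1: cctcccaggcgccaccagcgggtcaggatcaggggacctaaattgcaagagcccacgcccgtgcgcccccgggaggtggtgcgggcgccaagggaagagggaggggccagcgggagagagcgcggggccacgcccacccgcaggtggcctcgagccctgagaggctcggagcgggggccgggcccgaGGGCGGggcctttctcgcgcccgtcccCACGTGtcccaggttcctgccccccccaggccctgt
Sat1: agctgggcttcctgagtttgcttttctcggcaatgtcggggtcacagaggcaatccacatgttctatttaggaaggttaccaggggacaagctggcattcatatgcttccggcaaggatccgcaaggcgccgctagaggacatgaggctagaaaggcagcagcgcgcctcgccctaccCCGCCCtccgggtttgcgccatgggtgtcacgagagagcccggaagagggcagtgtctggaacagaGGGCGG
The Odc1 window held 4 GC boxes and no CACGTG. The Ass1 window held 1 of each, with no overlap between them, and the Sat1 window held 2 GC boxes and no CACGTG. Of 32851 mouse windows of the same length, 6.02% held CACGTG and 32.7% held the GC box. These are matches of letters in one window per gene and describe no binding. Bases downstream of the start were not searched, so the Odc1 window cannot show whether Odc1 lacks CACGTG.

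Azin1, whose product protects ornithine decarboxylase from antizyme, was dim on these arrays. Its log2 intensity was 6.07, 6.23, 6.18 and 6.54 in rat replicates 1 to 4. In human replicates 1 to 4 it was 6.77, 6.95, 7.30 and 7.24. The groups did not overlap, although rat replicate 4 came within 0.23 of the lowest human well. This gave a log2 difference of 0.81 (SE 0.14, adjusted p = 0.00094). Being close to background, it shrank to 0.22 with no background correction and 0.23 with the authors' rescaled values, where it was still called.

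Srm makes spermidine from putrescine. Its brightest probe read 9.37, 9.29, 9.12 and 9.56 with rat IAPP and 10.65, 10.63, 10.40 and 10.64 with human IAPP, in log2 intensity for replicates 1 to 4. The groups did not overlap, and 0.84 log2 units separated the nearest wells. The log2 difference was 1.24 (SE 0.11, adjusted p = 1.1e-05), and it was 0.82 with median scaling. The other 2 Srm probes gave 1.35 and 1.36 (SE 0.11 each, adjusted p = 8.1e-06 and 1.1e-05 over probes), so all 3 placed the human wells higher without overlap.

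Sms, which makes spermine from spermidine, was represented by 1 probe that was undetected on all 8 arrays, with raw signals from 249.2 to 319.5 units, within the background. No level or difference can be given for it.

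Sat1 starts polyamine breakdown by acetylation and was bright in every well. Its log2 intensity was 14.68, 14.73, 14.78 and 14.37 in rat replicates 1 to 4. With human IAPP it was 14.65, 14.51, 14.74 and 14.75. The groups overlapped, and the lowest well was rat replicate 4. The log2 difference was 0.02 (SE 0.10, adjusted p = 0.87), with a 95% interval from -0.21 to 0.26. With the authors' rescaled values it was 0.34 and called (adjusted p = 0.00055), and with median scaling it was -0.16 and not called (adjusted p = 0.59).

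Arg1 showed the opposite direction to Odc1. The log2 intensity in rat replicates 1 to 4 was 7.57, 7.79, 7.77 and 7.69. In human replicates 1 to 4 it was 5.91, 5.59, 6.28 and 5.85. The probe was detected in all 4 rat wells but only in human replicate 3, the brightest human well, and the nearest wells of the groups lay 1.29 apart. The log2 difference was -1.80 (SE 0.13, adjusted p = 4.5e-06). It was -1.47 with each human well raised to the dimmest signal detected on its array, a setting added after seeing the data. In bulk RNA, fewer cells expressing a gene and less RNA per cell cannot be told apart. The size of the fall rests on the background correction: it was -0.53 with none and -0.48 with the authors' rescaled values, called in both.

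Arg2, the mitochondrial arginase, read 11.18, 11.03, 11.11 and 10.60 in rat replicates 1 to 4 on the log2 scale. It read 10.38, 10.73, 10.80 and 10.52 in human replicates 1 to 4. The groups overlapped, because rat replicate 4 lay below 2 of the human wells. Between the group means lay -0.37 log2 units (SE 0.14, adjusted p = 0.049), which is at the threshold. The call was lost on leaving out any of 6 of the 8 arrays, rat replicates 1, 2 or 3 or human replicates 1, 2 or 4, with adjusted p from 0.057 to 0.12. It was -0.79 with median scaling, and it lost its call with cyclic loess and with the authors' rescaled values (-0.25, adjusted p = 0.051).

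Nos2, the inducible synthase, had 1 probe and was undetected on all 8 arrays. Its raw signal was 306.4, 325.7, 343.1 and 287.2 units in rat replicates 1 to 4 and 302.2, 287.6, 248.5 and 241.3 in human replicates 1 to 4, with detection p-values of at least 0.53. Each of these signals lay below the median of the undetected probes on its own array, furthest in human replicates 3 and 4. Those medians ran from 290.6 to 350.5 units. Neither group thus gave a measurable Nos2 signal at 12 hours, which limits only what this probe could detect.

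Ass1 and Asl carry citrulline back to arginine. Ass1 read 11.70, 11.77, 11.52 and 11.66 in rat wells and 11.89, 12.09, 12.00 and 11.83 in human wells, as log2 intensity for replicates 1 to 4. The groups were separated by only 0.06. Ass1 thus differed by 0.29 log2 units (SE 0.09, adjusted p = 0.017), and it turned to -0.06 (adjusted p = 0.84) with median scaling. Asl had 2 probes. The brighter read 8.63, 8.73, 8.61 and 9.19 with rat IAPP and 9.33, 9.39, 9.63 and 9.60 with human IAPP. Rat replicate 4 again lay closest to the human wells. The log2 difference was 0.70 (SE 0.14, adjusted p = 0.0018). It was 0.26 with median scaling and not called (adjusted p = 0.31), and 0.45 with no background correction and 0.46 with the authors' rescaled values, called in both. The dimmer Asl probe gave 0.70 as well, with a larger SE of 0.21 and overlapping groups (adjusted p = 0.018 over probes).

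Rat replicate 4 was the rat well nearest the human mean for 7 of the 11 tested member probes, and for 33.0% of all 7809 genes. Taken as the lone rat array, a setting chosen after its place was seen and so bound to give smaller differences for most members, it left log2 differences of 2.08 for Odc1, 1.03 for Srm, 0.45 for Azin1, 0.30 for Asl, 0.30 for Ass1 and 0.01 for Arg2. Of the 7 members tested 2, Odc1 and Srm, were called there, where 48.0% of 7159 genes were. This describes that array and is no test of the conditions. Without it 7 members were called, where 61.1% of 7654 genes were, and the log2 differences were 1.81 for Odc1, 1.32 for Srm, -1.85 for Arg1, 0.93 for Azin1, 0.83 for Asl, 0.29 for Ass1 and -0.50 for Arg2.

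**Figure D2:**
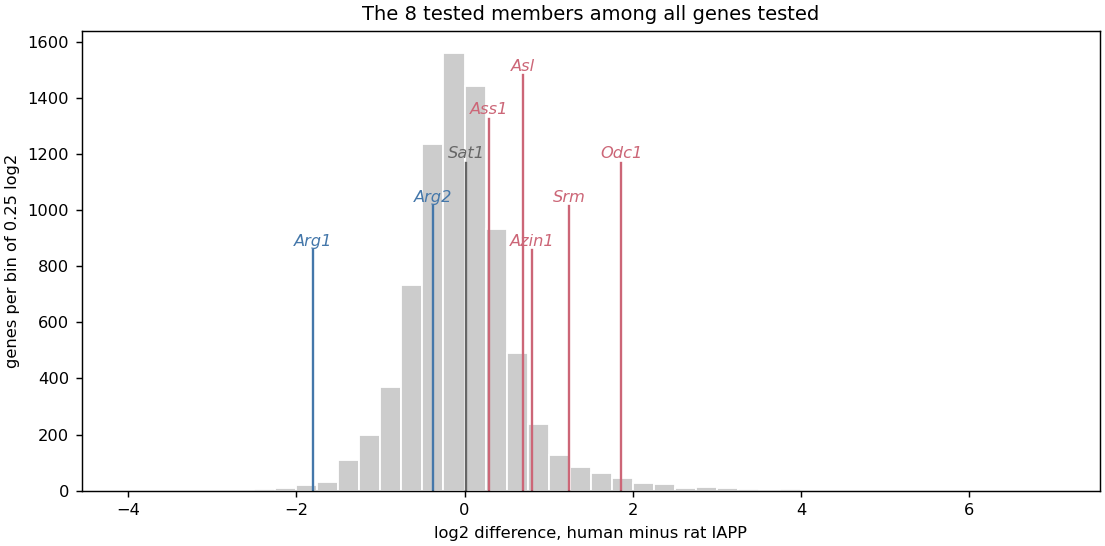
Distribution of log2 differences (human minus rat IAPP) over the 7809 genes tested, in bins of 0.25 log2 units, with the 8 tested members marked by lines whose height carries no meaning. Red marks genes called higher, blue called lower and grey not called. Arg1 at -1.80 and Odc1 at 1.86 lie in the tails and Sat1 at 0.02 lies in the centre.

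Of the tested genes for cell-surface arginine transporters and their shared heavy chain, most had higher transcript levels with human IAPP and Slc7a7 had lower. The direction of transport was not measured. Of 13 listed genes of arginine uptake and the urea cycle 11 had a probe and 7 were tested, 4 called higher and 3 lower. Among the 4 was Slc7a1, which passed the detection filter only through the human wells, a selection that favours a rise. Beside this list count and each list count below stand the 23.8% called higher and 32.5% called lower among all genes, to which the same filter applied. Slc3a2, the heavy chain shared by several amino acid exchangers, read 8.62, 8.26, 8.28 and 8.46 in rat wells and 9.59, 9.62, 9.77 and 10.24 in human wells, which is 2.64-fold more (1.40 in log2, SE 0.15, adjusted p = 4.8e-05). Slc7a2, the inducible cationic amino acid transporter CAT2, rose 2.38-fold, from 7.37 ± 0.07 to 8.62 ± 0.23 (SD, n = 4; adjusted p = 1.4e-05). A dimmer probe gave 0.64, and a probe too dim to test gave 0.07, both with overlapping groups. Slc7a6, a light chain that pairs with Slc3a2, rose 1.49-fold, a call lost with median scaling (0.15, adjusted p = 0.60). Slc7a1, the constitutive transporter CAT1, was undetected with rat IAPP and was at least 1.31-fold higher on the background-corrected scale. For this bound each rat array contributed the dimmest signal detected on it, or the probe's reading where that was brighter. The other Slc7a1 probe was undetected on all 8 arrays. Slc7a7, the other listed partner of Slc3a2, was 1.57-fold lower, Slc25a15, the mitochondrial ornithine carrier, 1.37-fold lower on its brighter probe (0.03 on the log2 scale on the other), and Gamt, which makes creatine, 1.52-fold lower. The urea cycle genes Otc and Cps1 were undetected on all arrays. With no background correction the log2 differences of this list were smaller, at 0.91 for Slc3a2, 0.58 for Slc7a2, 0.26 for Slc7a6, 0.19 for Slc7a1, -0.37 for Slc7a7, -0.29 for Slc25a15 and -0.35 for Gamt, all called. Median scaling gave 0.82 for Slc7a2, -1.10 for Slc7a7, -0.91 for Slc25a15 and -1.03 for Gamt. The call of Slc25a15 was lost with the mean over its probes (-0.21, adjusted p = 0.11). The median of the list was 0.58, with Slc7a1 at its fitted value of 0.75.

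The cofactor of nitric oxide synthases, tetrahydrobiopterin, is made by enzymes whose genes moved apart. Gch1, the rate-limiting step, read 12.43, 12.35, 12.28 and 12.55 in rat wells and 14.08, 14.14, 14.07 and 14.10 in human wells. The groups lay far apart relative to their SDs of 0.12 and 0.03. The rise was 3.24-fold, or 1.70 in log2 (SE 0.08, adjusted p = 2.0e-07). A second probe gave 1.46. Pts, the next step, was 1.87-fold lower, while Spr and Qdpr gave 0.11 and 0.08 and were not called (adjusted p = 0.33 and 0.52). Nosip, which binds endothelial nitric oxide synthase, was 1.95-fold lower. Nos3, the endothelial isoform itself, was detected on 1 of 4 rat arrays and all 4 human arrays and rose 2.04-fold as fitted on its brightest probe, or 1.67-fold with the rat wells raised to the dimmest signal detected on their arrays. With no background correction its log2 difference was 0.26 and that of Nosip -0.50, both called. Its other probes gave 0.42 and 0.34 and were too dim to test. Nos1, at the edge of detection, gave 0.02 (adjusted p = 0.94). Of 7 tested genes of this list 2 were called higher and 2 lower, with a median of 0.076.

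Among the other polyamine genes Smox, the spermine oxidase that returns spermine to spermidine, rose 1.88-fold. Its brightest probe read 12.30, 12.10, 12.14 and 12.42 in rat wells and 13.08, 13.24, 13.04 and 13.24 in human wells (log2 difference 0.91, SE 0.09, adjusted p = 3.5e-05). The 5 Smox probes gave differences from 0.80 to 0.97, all without overlap. Oaz1, the main antizyme, read 13.57 ± 0.11 with rat IAPP and 13.57 ± 0.04 with human IAPP (SD, n = 4; difference -0.01, SE 0.07, adjusted p = 0.96), although the authors' rescaled values gave 0.26 (adjusted p = 0.0074). Oaz2, a second antizyme, was 1.47-fold lower, from 10.36 ± 0.08 to 9.80 ± 0.08 (SD, n = 4; adjusted p = 0.00019). Atp13a2, which exports polyamines from lysosomes, was 1.72-fold lower. Amd2, a near-identical copy of the gene for S-adenosylmethionine decarboxylase, gave 0.09 (adjusted p = 0.69), and its probe may read both copies. Of the 5 tested genes 1 was called higher and 2 lower, with a median of -0.0056. Median scaling gave -0.98 for Oaz2 and -1.19 for Atp13a2.

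Ornithine can also pass to proline and glutamate, and spermidine feeds the hypusine modification of Eif5a. Oat, ornithine aminotransferase, rose 1.13-fold (adjusted p = 0.044), and Aldh4a1, which oxidises the shared intermediate to glutamate, was 1.82-fold lower (adjusted p = 3.0e-05). Glul, glutamine synthetase, was undetected with human IAPP and at least 1.51-fold lower on the background-corrected scale. Its log2 difference was -0.24 with no background correction and -0.21 with the authors' rescaled values, called in both. Aldh18a1, the entry step to proline from glutamate, gave 0.23 (adjusted p = 0.083). Of 4 tested genes of that list 1 was called higher and 2 lower, and the median was -0.34. Glul, among the 2, entered this median at its fitted value of -0.98. Its probe passed the detection filter only through the rat wells, a selection that favours a fall. Eif5a itself, the only tested gene of the hypusine list, rose 1.19-fold (adjusted p = 0.021). In methionine supply and salvage, Mtap, which recovers the by-product of spermidine and spermine synthesis, rose 1.42-fold (adjusted p = 0.00058) and Adi1, a later salvage step, 1.18-fold (adjusted p = 0.028). Mat2b, the regulatory subunit of methionine adenosyltransferase, was 1.98-fold lower on its brightest probe (adjusted p = 4.0e-05). A dimmer Mat2b probe gave a log2 difference of -0.39 (adjusted p = 0.0036 over probes). Another Mat2b probe, too dim to test, went the other way at 0.57. Ahcy, Apip and Enoph1 gave 0.09, 0.08 and -0.25 and were not called (adjusted p = 0.65, 0.70 and 0.083). That list thus had 2 called higher and 1 lower of 6, with a median of 0.086. Under median scaling Oat, Eif5a and Adi1 turned to -0.10, -0.02 and -0.15 and Mtap gave 0.06, none of them called. Oat kept its call only without rat replicate 3 (adjusted p = 0.047, against 0.053 to 0.11 without any other array), Adi1 lost it without rat replicate 1 or human replicates 3 or 4 (0.056 to 0.074), and Eif5a without rat replicate 2 or human replicates 3 or 4 (0.051 to 0.061).

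**Figure D3:**
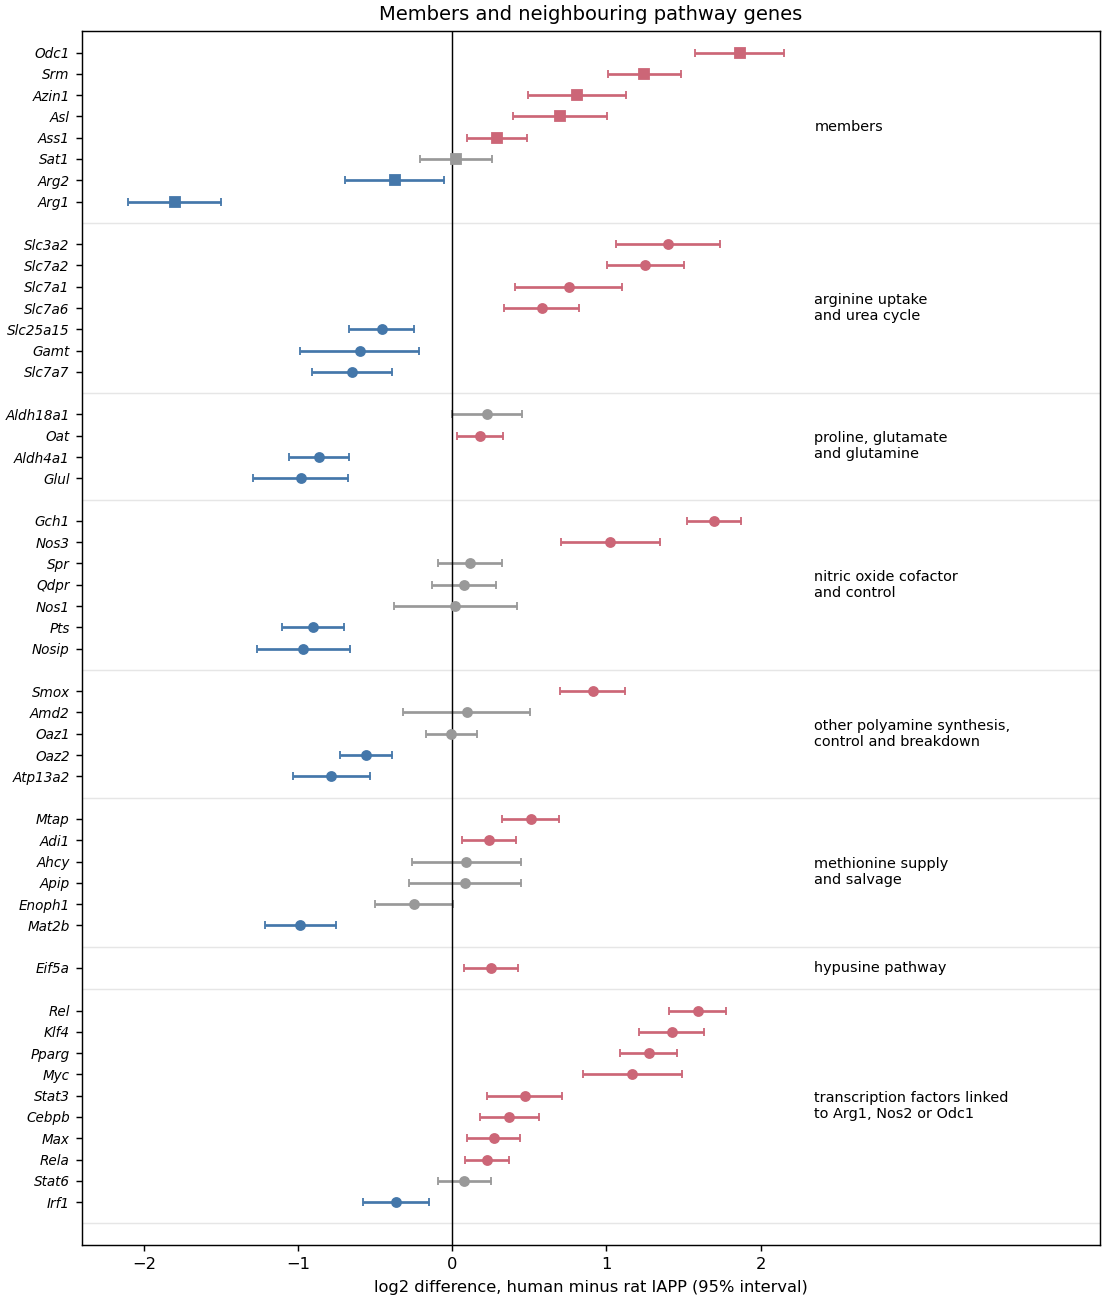
Log2 differences (human minus rat IAPP, horizontal axis) with 95% intervals from the fit for the 8 tested members (squares) and 40 genes of 7 neighbouring lists (circles). Red marks genes called higher, blue called lower and grey not called. Slc7a1 and Myc were undetected with rat IAPP and Glul with human IAPP, so their points are fitted values and not bounds. Odc1, Gch1 and Rel lie furthest to the right and Arg1 furthest to the left.

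Transcription factors known to act on Arg1, Nos2 or Odc1 formed the last list, of which 8 of 10 tested genes were called higher and 1 lower, with a median of 0.42, where 23.8% and 32.5% of all genes were. Myc is among the 8 and passed the detection filter only through the human wells. Of the factors linked to Arg1, Klf4 and Pparg rose 2.68-fold and 2.42-fold, Stat3 and Cebpb 1.38-fold and 1.29-fold, and Stat6, the interleukin-4 signal transducer, gave 0.08 (adjusted p = 0.40). Arg1 itself was lower in the same wells. Of those linked to Nos2, Rel rose 3.01-fold (1.59 in log2, SE 0.08, adjusted p = 5.0e-07; 0.77 in log2 with no background correction), Rela rose 1.17-fold, and Irf1 was 1.29-fold lower on its brightest probe (adjusted p = 0.0091) with overlapping groups. Irf1 was not called by the mean over its probes (-0.15, adjusted p = 0.24), nor in the authors' rescaled values (-0.15, adjusted p = 0.089). The other Irf1 probes gave -0.20 to -0.01 and were not called. Of those linked to Odc1, Myc was undetected with rat IAPP and at least 1.78-fold higher on the background-corrected scale. Its fitted log2 difference was 1.17, and it was 0.29 both with no background correction and with the authors' rescaled values. Myc was called in each, but its probe passed the detection filter only through the human wells, a selection that favours a rise. A second Myc probe was undetected on all 8 arrays. Max, the partner of Myc, rose 1.21-fold. With median scaling Rela and Max turned to -0.03 and -0.05, Pparg gave 0.84 and Irf1 -0.66, and Cebpb and Stat3 lost their calls. Over the 7 lists together 40 of 68 genes were tested, 19 called higher, 11 lower and 10 not called, with a median of 0.15. These counts include Slc7a1 and Myc as higher and Glul as lower, each detected in 1 group only.

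The genes whose pattern over the 8 wells was most like that of Odc1, by the root mean square distance between log2 values centred on the rat mean, were Mical2 (0.138), Arhgap25 (0.142) and Lmnb1 (0.145), with differences of 1.92, 1.91 and 1.72. Those most like Arg1 were Pald1 (0.185), Rcbtb2 (0.190) and Nuak1 (0.200), with differences of -1.81, -1.76 and -1.78. The distance is a description over 8 wells among 7809 genes and carries no test.

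**Figure D4:**
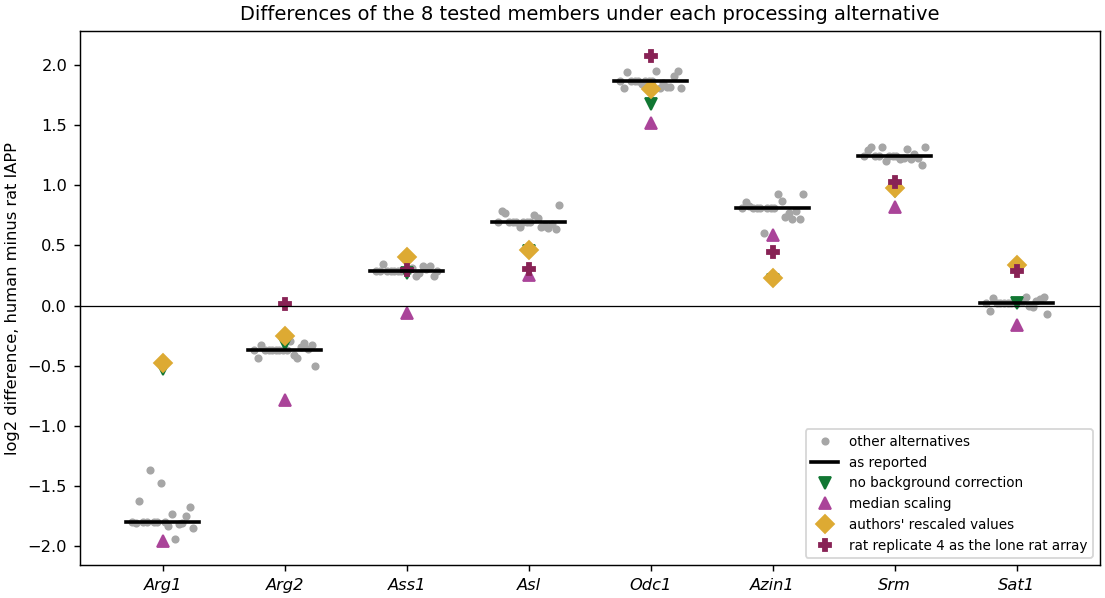
Log2 differences (human minus rat IAPP, vertical axis) of the 8 tested members as reported (black bars) and under each processing alternative (points). Values that keep the background (green and yellow) bring Arg1 to -0.53 and -0.48 and Azin1 to 0.22 and 0.23, median scaling (purple) lowers every member, and with rat replicate 4 as the lone rat array (dark red) Arg2 lies at 0.01. Arg1 was too dim to be tested in that last setting and has no such point.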

How the data were processed

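RNA from 8 wells was hybridised as biotinylated cRNA to Illumina mouse arrays, per the labels' protocols. The authors deposited probe intensity values on a linear scale, neither background subtracted nor normalised between arrays, each with a detection p-value, per the file headers. A second deposited table holds intensity values rescaled linearly by a method that is not stated, with column medians of 352.6, 356.6, 353.8 and 361.1 (rat) and 361.8, 362.9, 359.2 and 367.7 (human); it is not centred and served as an alternative. No slide or scan date accompanied the values, so no batch was tested.

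Background was corrected by normexp with negative controls inferred from detection p-values and an offset of 16 (limma 3.58.1, R 4.3.3), then quantile normalisation and log2. Testing was limited to probes detected (p under 0.05) on 4 or more of the 8 arrays. Probes were named through the platform annotation (1 symbol for 23978 probes, several for 0, 1719 unlisted), with symbols updated by gene number in RefSeq GRCm38.p6 for 23962. Where a gene had several tested probes, the brightest stood for it. The contrast of human with rat IAPP was fitted by lmFit and eBayes, with no covariate. Adjusted p-values (Benjamini-Hochberg) run over 7809 genes, or over 11451 probes where a gene's other probes are given. No 2 arrays held identical values. Precision is limited by the array number. The steps were tested on simulated arrays in which few probes were changed, equally up and down. Those arrays do not test the normalisation under changes as widespread as those found here.

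The members, lists, named genes and tests were chosen with earlier results of these data known. Named were all members, any tested gene of the 7 lists, and the 3 genes nearest in pattern to the largest rise and the largest fall. Replicate numbers are shared between the groups. Correlations of deviations from the group means, taken after normalisation, were -0.13, -0.02, 0.16 and -0.00094 for numbers 1 to 4. Normalisation between arrays removes array-wide effects, so these values cannot exclude that the numbers pair the wells. Mean raw signal fell in the order of numbers 3, 1, 2 and 4 in both groups. It was 1967, 1538, 1523 and 1180 units with rat IAPP and 1368, 1288, 1204 and 1144 with human IAPP.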

Additional observations from a re-analysis of the deposited data

Results flagged for a closer look

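In 6 of the 102 groups of 4 wells examined (51 probes in both conditions) the highest or lowest well stood apart, with a gap to its neighbour above the 95% critical share of the group's range. Chance flags about 5% of groups. Human replicate 3 was the lowest human well for 2 of the 3 Srm probes, at 10.40 against 10.63 to 10.65 (a gap of 0.944 of the range) and at 10.28 against 10.37 to 10.39 (0.848), and both lay above all rat wells. For Slc7a6 human replicate 4 was highest, at 8.52 against 8.10 to 8.16 (0.844). For Aldh4a1 human replicate 4 was lowest, at 9.84 against 9.98 to 9.99 (0.937). For Amd2 human replicate 2 was lowest, at 7.59 against 7.85 to 7.90 (0.837). For Irf1 human replicate 1 was highest, at 12.48 against 12.19 to 12.24 (0.839).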

How the results depend on the processing

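Odc1 and Srm kept direction and call under all 22 alternatives. With median scaling the median of all genes moved from -0.055 to -0.40, genes called higher fell to 516, and higher calls made 14.1% of calls against 42.3% as reported (53.5% with the authors' rescaled values). Members called higher were then 3, and signs turned for Ass1 (-0.059), Sat1 (-0.16), Oat (-0.10), Aldh18a1 (-0.21), Spr (-0.34), Qdpr (-0.34), Nos1 (-0.014), Amd2 (-0.33), Ahcy (-0.070), Apip (-0.37), Adi1 (-0.15), Eif5a (-0.024), Stat6 (-0.35), Rela (-0.029) and Max (-0.048). With rat replicate 4 as the lone rat array, chosen after seeing that it lay nearest the human mean, and assuming that it varies like the human wells, 2 members were called, 2 higher and 0 lower (limma; Arg2, the sole tested member reported as lower, had an adjusted p of 0.96), and Arg2 (0.012), Spr (-0.029), Qdpr (-0.081), Ahcy (-0.16) and Apip (-0.28) turned. Members called lower were 1 with cyclic loess, with the authors' rescaled values, with all probes tested and at a threshold of 0.01, each by the loss of Arg2, and 1 with probes detected on all 8 arrays, where Arg1 was not tested. Array weights gave -0.045 for Sat1 and 0.024 for Oaz1, cyclic loess and the authors' rescaled values 0.065 and 0.26 for Oaz1, and the mean over probes -0.14 for Apip. Leaving out each array in turn gave 6 to 7 members called, 1 to 2 of them lower, and 3852 to 4680 genes called. Differences ran from -0.066 to 0.073 for Sat1, -0.065 to 0.25 for Amd2, -0.034 to 0.044 for Oaz1, -0.028 to 0.20 for Ahcy and -0.055 to 0.20 for Apip. Nos1 was tested in only 4 of these 8 runs, with differences from -0.075 to 0.14. For sign changes among uncalled genes the cause was not tested. The replicate block gave 4158 genes called against 4401 and 7 members called; it lost the calls of Oat (adjusted p = 0.097) and Adi1 (0.067). Setting undetected wells at the dimmest detected signal, also added after seeing the data, gave -1.47 for Arg1 and 0.74 for Nos3. Signal over background limits Arg1 and Azin1, and Nos2 and Sms entirely.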
